A study of Mus musculus with 39 samples.

Results

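Isoniazid at 2500 ppm in the diet was compared with plain diet after 7 days in mouse lung. The comparison holds 10 of the 39 arrays of the series, chosen by their titles: 5 lungs of mice fed isoniazid for 7 days and 5 lungs of mice fed control diet (0 ppm) for 7 days. All animals were female Crlj:CD1(ICR) mice, an outbred stock, aged 11 weeks in the groups compared here, and ate a powdered diet. The labels name isoniazid as the agent known to induce tumours against which the insecticide permethrin was set. The other groups used here are lungs of mice fed isoniazid or control diet for 14 days (5 animals each, aged 12 weeks) and permethrin at 5000 or 10000 ppm for 7 days (5 animals each, aged 11 weeks). Each array measured 1 animal, so errors measure the spread between animals. RNA came from whole lung, so fewer cells of a type and less RNA per cell cannot be told apart in any value below.

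Isoniazid is a hydrazide drug used against tuberculosis. The body acetylates it through N-acetyltransferases and hydrolyses it to hydrazine and other products, and it binds pyridoxal phosphate, the active form of vitamin B6. Pyridoxal phosphate is the cofactor of 5-aminolevulinate synthase, the enzyme encoded by Alas1 that makes the first and limiting step of haem synthesis. Haem in turn is the prosthetic group of cytochrome P450 enzymes such as CYP1A1, whose gene is switched on by the aryl hydrocarbon receptor through short DNA elements with the core GCGTG.

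After 7 days, 6 of 13020 genes tested passed the threshold of an adjusted p of 0.05 (limma, Benjamini-Hochberg adjustment), which is 0.0461%. Of these, 4 were higher in isoniazid lungs (0.0307% of genes tested) and 2 were lower (0.0154%). The genes that rose were Cyp1a1, a P450 of aromatic hydrocarbon metabolism, Alas1, the metal-binding metallothionein Mt1, and Selenbp1, which encodes a selenium-binding protein that oxidises methanethiol. The genes that fell were Ppp1r3c, a subunit that targets protein phosphatase 1 to glycogen, and Scn3b, a beta subunit of voltage-gated sodium channels. At an unadjusted p under 0.05 there were 849 genes (6.52%), 497 of them higher (3.82%) and 352 lower (2.7%). The median log2 fold change over all genes tested was 0.01, and 53.7% of genes had a positive one.

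The promoters of Cyp1a1, Alas1 and Mt1 are shown because these genes lead the rise. The elements marked are those of the aryl hydrocarbon receptor and of metal response, and binding to them was not tested. In Alas1 the metal response elements of the window are left unmarked. The 300 bases are those of RefSeq on GRCm38.p6, 250 before and 50 after the transcription start, read 5′ to 3′ on the gene's strand. Capitals mark the aryl hydrocarbon receptor core GCGTG in Cyp1a1 (chr9:57697363-57697662, plus strand) and in Alas1 (chr9:106247905-106248204, minus strand, the first of 2 starts listed), and the metal response elements TGCGCNC or TGCACNC in Mt1 (chr8:94178839-94179138, plus strand).
Cyp1a1: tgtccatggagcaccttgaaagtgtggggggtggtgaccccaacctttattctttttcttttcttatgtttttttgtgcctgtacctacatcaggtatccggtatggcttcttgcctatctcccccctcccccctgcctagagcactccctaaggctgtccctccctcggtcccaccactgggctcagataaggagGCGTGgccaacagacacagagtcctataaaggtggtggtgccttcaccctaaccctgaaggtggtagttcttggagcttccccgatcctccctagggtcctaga
Alas1: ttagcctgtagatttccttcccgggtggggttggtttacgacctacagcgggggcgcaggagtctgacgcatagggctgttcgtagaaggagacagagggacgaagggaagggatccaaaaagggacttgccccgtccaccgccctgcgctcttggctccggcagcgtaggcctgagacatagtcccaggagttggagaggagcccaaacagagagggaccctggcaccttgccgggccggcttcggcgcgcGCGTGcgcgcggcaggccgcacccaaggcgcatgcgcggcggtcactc
Mt1: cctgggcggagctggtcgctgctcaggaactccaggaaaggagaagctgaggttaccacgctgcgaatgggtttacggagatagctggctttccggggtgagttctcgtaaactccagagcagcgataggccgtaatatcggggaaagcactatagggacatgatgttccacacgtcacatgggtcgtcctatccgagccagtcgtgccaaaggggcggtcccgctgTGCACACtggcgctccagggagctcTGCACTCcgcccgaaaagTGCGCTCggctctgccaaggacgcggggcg

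Both strands were searched. The Cyp1a1 window held 1 match of GCGTG, at 54 to 50 bases before the start, and 32.4% of all 32851 promoter windows held at least 1. The Alas1 window held 1 match of GCGTG as well, from base 3 to base 7 after the start, and 3 metal response elements, 1 of which overlaps it. The Mt1 window held 3 metal response elements and 1 match of GCGTG on the other strand, and 25.7% of all windows held at least 1 metal response element. The window of Mt2 held 4 metal response elements, 2 matches of GCGTG and 1 antioxidant response element (TGACNNNGC), which 12.4% of windows held. In Mt2, 1 match of GCGTG overlaps 1 metal response element. The Selenbp1 window held 2 metal response elements and 2 matches of GCGTG, which overlap in 1 stretch from 181 to 168 bases before the start. The Ppp1r3c window held 1 of each and 1 E-box (CACGTG, bound by the core clock activators), which 7.15% of windows held. GCGTG was thus in the window of each gene described here, and 32.4% of all windows held it. Scn3b, which also passed the threshold, had no window in the promoter set. A match describes the letters only, and no match says nothing of the factor.

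Values below are log2 of the signal after quantile normalization, and fold changes are isoniazid over control on that scale. Cyp1a1 had the largest rise. Its log2 signals were 6.25, 5.64, 5.85, 5.07 and 7.18 in the control lungs and 8.65, 8.23, 7.55, 8.67 and 7.68 in the isoniazid lungs. The lowest isoniazid lung lay above the highest control lung, and control animal 5 stood highest among the controls. The means were 5.999 ± 0.79 and 8.16 ± 0.53 (SD, n = 5 each), a rise of 2.16 ± 0.37 (SE) or 4.46-fold (limma, adjusted p = 0.00778).

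Alas1 had the smallest p of all genes. Control lungs read 9.48, 9.83, 10.16, 10.01 and 10.04, and isoniazid lungs read 10.61, 11.16, 10.94, 10.84 and 10.91. All 5 treated lungs stood above all controls. The rise was 0.99 ± 0.13 (SE), 1.98-fold, from 9.90 ± 0.26 to 10.89 ± 0.20 (SD, n = 5; limma, adjusted p = 0.000103). A second, dimmer Alas1 probe set gave a log2 fold change of 1.11 ± 0.25 (SE).

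Mt1, a small cysteine-rich protein that binds zinc and copper, read 9.08, 8.86, 8.97, 8.38 and 8.24 in controls. In isoniazid lungs it read 9.75, 10.06, 9.80, 9.74 and 9.23. The groups did not overlap, with control animal 1 and isoniazid animal 5 nearest to each other. The rise was 1.01 ± 0.20 (SE), 2.02-fold (limma, adjusted p = 0.0377).

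Selenbp1 was a bright gene with little spread after quantile normalization. Its control lungs lay at 11.65, 11.78, 11.84, 11.79 and 11.82 and its isoniazid lungs at 12.19, 12.25, 12.34, 12.32 and 12.08. The shift was thus small but larger than the spread, at 0.46 ± 0.08 (SE) or 1.38-fold (limma, adjusted p = 0.00965). Its second probe set gave 0.47 ± 0.08 (SE). With the deposited scaling Selenbp1 differed by 0.50 ± 0.13, and with arrays centred on their medians by 0.55 ± 0.17 (SE). Neither passed (limma, adjusted p = 0.213 and 0.604), so the spread depends on the normalization. Selenbp2, a near-identical paralog, had no named probe set here, so signal from it cannot be told apart from that of Selenbp1.

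Ppp1r3c fell. Control lungs read 9.02, 9.08, 8.67, 8.36 and 8.33, and isoniazid lungs read 8.10, 7.91, 7.78, 7.49 and 7.80. Every treated lung was below every control. The log2 fold change was -0.87 ± 0.16 (SE), so the level was 1.83-fold lower (limma, adjusted p = 0.00965). A much dimmer second probe set gave -0.53 ± 0.42 (SE).

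Scn3b fell as well. Control lungs read 9.72, 9.78, 9.30, 9.32 and 10.02, against 8.85, 8.91, 8.67, 8.86 and 9.11 with isoniazid. The treated lungs were close together and all below the controls. The log2 fold change was -0.75 ± 0.15 (SE), 1.68-fold lower (limma, adjusted p = 0.0377), and a dimmer second probe set gave -0.73 ± 0.23 (SE).

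**Figure D1:**
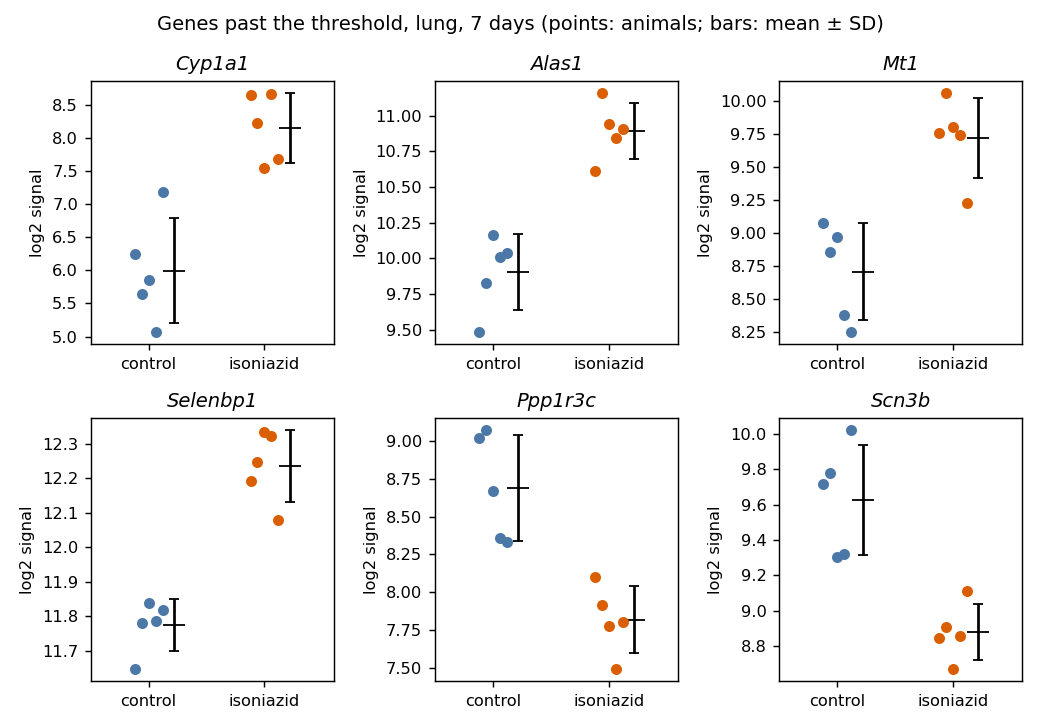
Log2 signal (vertical axes) of the 6 genes that passed the threshold in each lung at 7 days, with control diet in blue and isoniazid at 2500 ppm in orange. Points are animals and bars are group means ± SD (n = 5 each). In all 6 genes the groups do not overlap, and Cyp1a1 shows the widest spread among controls.

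These calls differed in how far they rested on single animals. Alas1 passed with each of the 10 animals left out in turn (log2 fold change 0.88 to 1.06), and Cyp1a1 passed in 9 of the 10. Selenbp1 and Ppp1r3c passed in 7 of the 10 each, and Mt1 and Scn3b in 3 of the 10 each. Without isoniazid animal 4, Alas1 alone passed, and Cyp1a1 was 2.03 higher on the log2 scale (limma, adjusted p = 0.0622). Without isoniazid animal 5, 22 genes passed, all 6 among them, and without isoniazid animal 3, control animal 1 or control animal 2, 3 genes passed. With arrays centred on their medians in place of quantile normalization, 2 genes passed, Alas1 and Cyp1a1. With only the compared groups in the fit, Alas1 and Selenbp1 alone of the 6 passed, and Cyp1a1 did not (limma, adjusted p = 0.103).

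Groups that did not overlap were found in 253 genes (1.94% of genes tested), 146 higher (1.12%) and 107 lower (0.822%) with isoniazid. Among those that did not pass the adjusted threshold, the 12 with the smallest p are given as values. Of genes for secreted and stress-related proteins, Saa3, a serum amyloid of the acute phase made outside liver, differed by 1.91 ± 0.46 (SE; limma, adjusted p = 0.125). Its isoniazid lungs ran from 6.18 to 9.07, while controls lay within 5.29 to 5.598. Serpina3n, an acute-phase protease inhibitor, differed by 1.55 ± 0.37, and Mt2, the partner of Mt1, by 1.21 ± 0.29. Fos, an immediate early transcription factor, differed by 0.79 ± 0.19. Sema7a, a membrane-anchored semaphorin, differed by 1.10 ± 0.25 and Galnt15, which starts O-linked glycans, by 0.89 ± 0.19. Cldn3, a tight junction protein, differed by 0.56 ± 0.13, with 3 further probe sets between 0.54 and 0.56. Dcxr, a carbonyl reductase, differed by 0.54 ± 0.12. Lower in all isoniazid lungs were Spon2, a secreted matrix protein (-1.25 ± 0.29), Wdfy4, which acts in antigen cross-presentation by dendritic cells (-0.93 ± 0.22), Col12a1, a fibril-associated collagen (-0.74 ± 0.18), and the adaptor Sh3bp5 (-0.42 ± 0.09). Errors are SE, and adjusted p over these 12 genes ran from 0.0763 to 0.125 (limma). Probe sets disagreed for Spon2 (second probe set -0.20) and Col12a1 (second probe set 0.22).

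**Figure D2:**
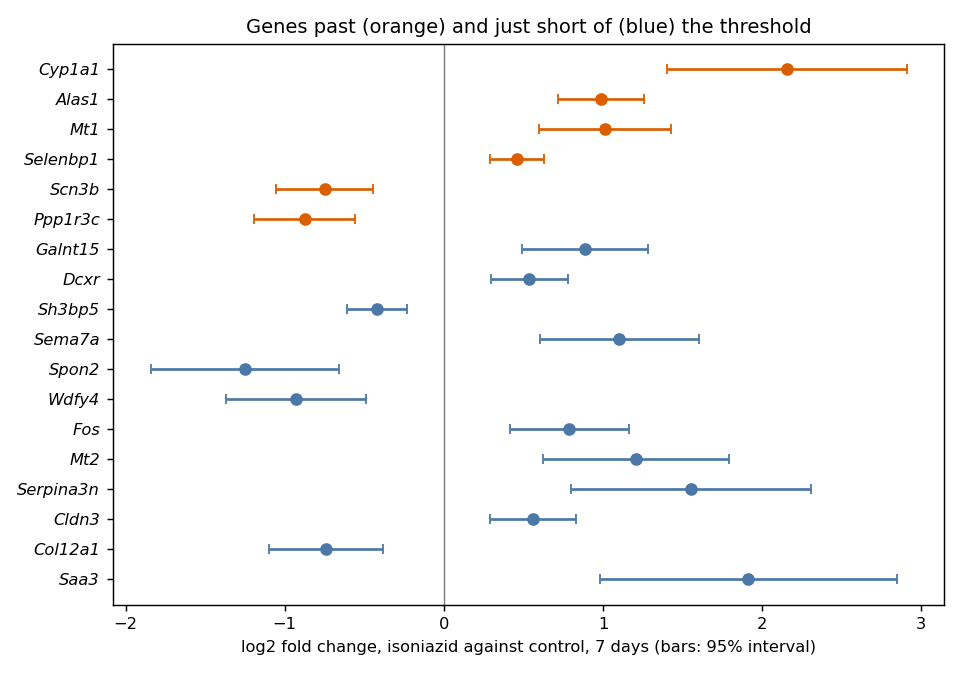
Log2 fold change of isoniazid against control at 7 days (horizontal axis) with 95% intervals from limma, for the 6 genes past the threshold (orange) and the 12 genes of smallest p among those that did not pass and did not overlap between groups (blue). Every interval shown lies on one side of 0, since these genes were chosen by their p, and that of Saa3, from 0.98 to 2.85, is the widest.

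In the aryl hydrocarbon receptor pathway, 10 of 19 listed genes were tested, 1 rose (Cyp1a1) and none fell. The list's median log2 fold change was 0.17, with 9 of 10 positive. Cyp1b1, a sister P450, read 5.65 to 5.93 in controls and 5.98 to 6.47 with isoniazid, a difference of 0.43 ± 0.17 (SE) that did not pass (limma, adjusted p = 0.653). Tiparp, a receptor target that feeds back on it, differed by 0.27 ± 0.12, and its other probe sets gave 0.01 and -0.01. Nqo1 (0.16, 95% interval -0.31 to 0.63) and Aldh3a1 (0.43, -0.15 to 1.01), both shared with the oxidative stress response, did not pass. Cyp1a2 and Ahrr, the receptor's repressor, had probe sets below the filter on dim signal and were not tested.

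In haem synthesis, 13 of 15 listed genes were tested and Alas1 was the single one past the threshold, with a list median of 0.13. The steps after it did not pass: Alad (-0.16, 95% interval -0.65 to 0.32), Uros (0.17, -0.17 to 0.50), Urod (0.04, -0.21 to 0.29), Cpox (0.33, -0.07 to 0.72) and Ppox (-0.16, -0.53 to 0.20). Fech, which inserts iron in the last step, differed by -0.68 ± 0.23 (SE; limma, adjusted p = 0.538), with 4 of 5 treated lungs below all controls. Its probe sets disagreed, at -0.82 and -0.07.

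Alas2, the erythroid form of the first enzyme, read 9.10, 8.34, 9.15, 8.68 and 9.37 in controls and 7.18, 7.93, 7.92, 4.76 and 8.90 with isoniazid. Isoniazid animal 4 was far below the others, and the difference of -1.59 ± 0.47 (SE) did not pass (limma, adjusted p = 0.343). Without that animal Alas2 differed by -0.95 ± 0.39. Slc4a1, the anion exchanger of the red cell membrane, differed by -2.05 ± 0.70, and without isoniazid animal 4 by -0.91 ± 0.49, with 2 of 5 treated lungs below all controls. Bpgm, which makes 2,3-bisphosphoglycerate, differed by -0.80 ± 0.25 (SE). Of 17 erythroid markers 11 had a named probe set and 5 were tested, with a median of -0.80, 4 negative and 1 positive, and none past the threshold. The summed signal of the 11, Alas2 among them, was 1529 to 2145 in controls and 1044 to 1487 with isoniazid. Their mean log2 level overlapped between the groups, at 3.88 to 5.17 in controls and 2.99 to 4.55 with isoniazid. As Alas2 is in both measures, neither is separate from it. The part of erythroid cells in the values of Fech and Alas2 was not tested.

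In haem breakdown and iron handling, 21 genes were tested and none passed (median 0.10). At an unadjusted p under 0.05, 5 of them were higher and 0 lower, against 3.82% and 2.7% of all genes tested. Hmox1, the inducible haem oxygenase, differed by 0.37 ± 0.16, Tfrc, the transferrin receptor, by 0.45 ± 0.16, and Cd163, the haemoglobin scavenger receptor of macrophages, by 0.62 ± 0.24 (SE). In the metallothionein and zinc transport list, 13 genes were tested and Mt1 passed (median 0.04). Mt2 read 8.01, 8.73, 8.25, 7.76 and 7.88 in controls and 9.40, 10.22, 9.33, 8.83 and 8.90 with isoniazid, without overlap (limma, adjusted p = 0.124). The zinc exporter Slc30a1 (0.23) and importer Slc39a4 (0.32) did not pass, nor did Mtf1, the zinc-sensing factor that acts on metal response elements (-0.02). Slc30a1 and Mtf1 were named after their values were seen. Among 16 selenium-related genes Selenbp1 alone passed (median 0.10). The deiodinase Dio2 (-0.65) and selenophosphate synthetase Sephs2 (0.42) did not.

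None of the 29 tested genes for pyridoxal phosphate handling and enzymes that use it passed, with a median of 0.04, and 16 were positive. The largest differences were in Cth, which makes cysteine from cystathionine (0.46 ± 0.15), Ddc, which decarboxylates aromatic amino acids (-0.45 ± 0.19), and Psat1 of serine synthesis (0.43 ± 0.19, SE). Pdxk, the kinase that forms pyridoxal phosphate, had a log2 fold change of 0.00 (95% interval -0.20 to 0.20). A much dimmer second probe set of Pdxk gave 0.50 ± 0.29 (SE).

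None of 18 tested genes of isoniazid and hydrazine metabolism passed (median 0.06). Nat2, an arylamine N-acetyltransferase, lay at 0.00 (-0.40 to 0.40) and Cyp2e1, which oxidises small molecules, at 0.14 (-0.91 to 1.19), an interval that leaves room for a change of more than 2-fold. Nat1, the other acetyltransferase listed, was below the filter. Cyp2b10, a P450 of lung and of the constitutive androstane receptor response, differed by 0.31 ± 0.09 (SE; limma, adjusted p = 0.339). Cyp2f2, the main P450 of club cells, differed by 0.10 ± 0.05. Among 15 tested targets of the receptors CAR and PXR, Alas1, which is also on that list, was the one that passed (median 0.10). Among 21 lung P450s and reductases none passed (median 0.07).

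None of the 30 tested genes of the NRF2 and glutathione response passed, and 27 had positive values, with a median of 0.17 and a highest value of 0.43. At an unadjusted p under 0.05, 4 of them were higher and 0 lower, against 3.82% and 2.7% of all genes tested. Gsta4, a glutathione transferase for lipid aldehydes, differed by 0.41 ± 0.14 (SE; limma, adjusted p = 0.534).

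**Figure D3:**
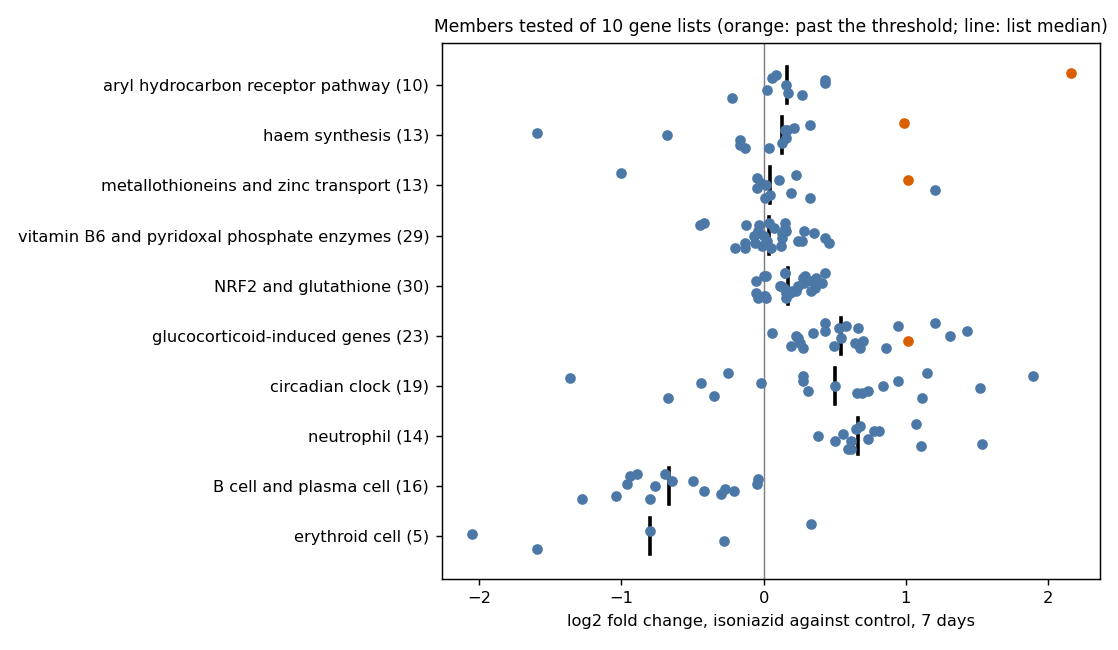
Log2 fold change of isoniazid against control at 7 days (horizontal axis) for the tested members of 10 gene lists, with the number tested in brackets. Points are genes, orange those past the threshold, and black lines are list medians. Glucocorticoid-induced and neutrophil genes all lie right of 0, B cell genes all left of it, while orange points are found in 4 of the 10 lists.

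Glucocorticoid-induced genes are those that cortisol or corticosterone switches on through its nuclear receptor. Of 24 listed genes 23 were tested and all 23 had positive log2 fold changes, with a median of 0.54. Mt1, which is also a metallothionein, was the 1 that passed, and 11 were higher at an unadjusted p under 0.05, against 3.82% of all genes tested. Map3k6, a stress kinase, differed by 1.43 ± 0.30 (SE; limma, adjusted p = 0.0521). Fkbp5, a chaperone of the receptor, read 6.59, 7.00, 6.79, 7.48 and 7.29 in controls and 8.94, 8.45, 8.68, 8.15 and 7.49 with isoniazid. The groups met at control animal 4 and isoniazid animal 5 without crossing, and the difference was 1.31 ± 0.32 (limma, adjusted p = 0.137). Tsc22d3 (0.54) and Per1 (0.94) did not pass, and Sgk1 lay at 0.19 and Klf9 at 0.24. Fkbp5, Tsc22d3, Per1, Sgk1 and Klf9 were named after their values were seen.

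The circadian clock is a loop in which the activators Arntl, Npas2 and Clock switch on Per, Cry, Nr1d1 and Dbp, which peak at another time of day. Of 19 tested clock genes none passed, 10 were higher and 2 lower at an unadjusted p under 0.05 (3.82% and 2.7% of all genes tested), and 8 did not overlap between groups (1.94% of all genes). Dbp, an output factor of the loop, read 4.50, 4.92, 5.78, 6.74 and 6.93 in controls and 6.65, 7.66, 7.29, 7.92 and 8.83 with isoniazid. Animals within each group thus spanned over 2 log2 units, and the difference was 1.90 ± 0.68 (SE; limma, adjusted p = 0.58). Npas2 differed by -1.36 ± 0.37 and Arntl by -0.67 ± 0.27, against Per3 at 1.15 ± 0.31, Tef at 0.69 ± 0.18 and Cry2 at 0.66 ± 0.18. Dbp, Arntl and Per3 were named after their values were seen.

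A clock score, the mean log2 level of 9 genes of the Per, Nr1d and Dbp side minus that of Arntl, Npas2 and Clock, ran from -1.75 to -0.24 in controls and from 0.12 to 1.495 in isoniazid lungs. The groups did not overlap, so clock state and diet move together in these 10 lungs. With this score as a covariate over all 39 arrays, 0 of 13020 genes passed (limma; 550 at an unadjusted p under 0.05). Alas1 was then 0.74 ± 0.14 higher (SE; limma, adjusted p = 0.0829), Cyp1a1 2.15 ± 0.45 (0.186), Mt1 0.996 ± 0.25 (0.409) and Scn3b -0.83 ± 0.18 (0.237). Selenbp1 had 0.37 ± 0.10 (0.409) and Ppp1r3c -0.64 ± 0.17 (0.446). All 6 kept their direction, while the hour at which lungs were taken was not given in the sources used here. The 23 glucocorticoid-induced genes were all positive in that fit, with a median of 0.59. Per1 is both on that list and in the score. As score and diet do not overlap in these lungs, the fit cannot tell the 2 apart.

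Neutrophil and B cell marker levels overlapped between the groups, with a wider spread among isoniazid lungs. All 14 tested neutrophil markers had positive log2 fold changes, with a median of 0.66, and none passed. At an unadjusted p under 0.05, 4 of the 14 were higher, against 3.82% of all genes tested. With 1 animal left out the median ran from 0.41 to 0.91, with 13 to 14 positive. Il1r2, a decoy receptor for interleukin-1, read 4.33 to 4.77 in controls and 4.96 to 8.01 with isoniazid (1.54 ± 0.50), and Mmp8, a neutrophil collagenase, differed by 1.11 ± 0.44 (SE). The mean log2 level over the neutrophil markers was 6.86 to 7.27 in controls and 6.75, 8.29, 9.04, 7.56 and 7.39 in isoniazid animals 1 to 5, so animals 2 and 3 stood highest and animal 1 lay below every control. All 16 tested B cell and plasma cell markers had negative values, with a median of -0.67, and none passed. At an unadjusted p under 0.05, 6 of the 16 were lower, against 2.7% of all genes tested. Ms4a1, the CD20 antigen, read 8.15 to 8.50 in controls and 5.73, 7.52, 5.90, 7.85 and 8.29 with isoniazid (-1.28 ± 0.46), and Blk, a B cell kinase, differed by -0.80 ± 0.28. The mean level of the B cell markers was 6.67 to 7.04 in controls and 5.71 to 6.82 with isoniazid. Summed signal was 5875 to 7101 in controls and 4332 to 20919 with isoniazid for the neutrophil markers, and 4927 to 8217 and 4285 to 7175 for the B cell and plasma cell markers.

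**Figure D4:**
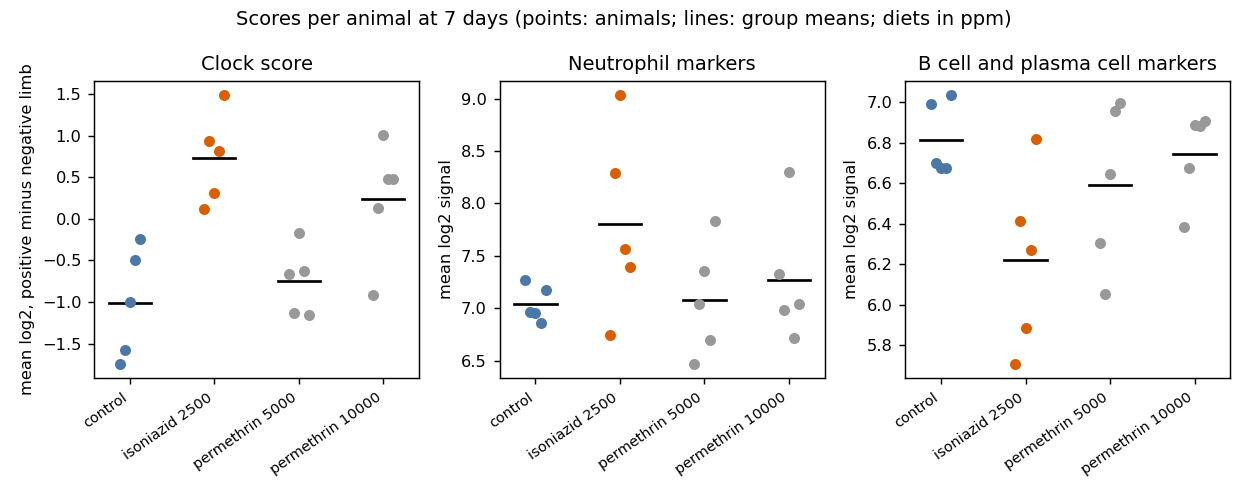
Clock score (left, log2), mean log2 signal of neutrophil markers (middle) and of B cell and plasma cell markers (right) in each lung of the 4 diets at 7 days, with doses in ppm. Points are animals (n = 5 a group) and lines are group means. Isoniazid lungs lie above all controls in the clock score, and the marker levels of isoniazid lungs spread more widely than those of controls.

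With the neutrophil and B cell levels as covariates, 3 genes passed: Alas1 (0.89 ± 0.15 SE; limma, adjusted p = 0.0154), Cyp1a1 (2.28 ± 0.42; 0.0347) and Ppp1r3c (-0.94 ± 0.18; 0.0406). In that fit the median of the glucocorticoid-induced genes was 0.24, with 22 of 23 positive, against 0.54 without the covariates. Lcn2 is both on that list and in the neutrophil level, and the part of blood cells in the list's values was not tested. Among 21 tested cytokine, chemokine and acute-phase genes none passed (median 0.23). Cxcl5, a neutrophil-attracting chemokine, read 3.69 to 5.36 in controls and 2.31 to 3.33 with isoniazid, below the limit of 3.43 set on mean signal, so its difference is not given. Lcn2, an iron-scavenging protein of neutrophils, differed by 0.68 ± 0.28 (SE). Among 17 macrophage markers none passed (median 0.19). Marco, a scavenger receptor, differed by 1.07 ± 0.37. Among 16 T and NK cell markers the median was 0.18, and none passed.

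Genes of growth control were listed because isoniazid served as the tumour-inducing agent. None of 20 tested p53 targets passed, and the median was 0.05. Trp53inp1, a p53-induced regulator of cell death and autophagy, differed by 0.53 ± 0.13 without overlap (SE; limma, adjusted p = 0.132). Cdkn1a, the p21 cell cycle inhibitor, which is also on the glucocorticoid list, read 9.26, 9.49, 9.69, 9.61 and 9.67 in controls and 10.97, 10.45, 10.75, 10.09 and 8.97 with isoniazid. In animal 5 it was below every control, and the difference was 0.70 ± 0.29. Mdm2 (-0.01) and Ccng1 (-0.05), targets named after their values were seen, were close to 0. None of 35 tested cell cycle genes passed (median 0.03): Mki67 differed by -0.10 (95% interval -0.62 to 0.42) and Top2a, the DNA topoisomerase of dividing cells, by -0.08 (-0.53 to 0.36).

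Past the threshold were 0.0461% of all genes tested, and no member of the other stress and metabolic lists. Their median log2 fold changes were 0.14 for the integrated stress and unfolded protein responses (24 genes), 0.00 for heat shock (15), -0.06 for cholesterol synthesis (19), 0.04 for peroxisome and fatty acid oxidation (23), -0.13 for interferon-induced genes (21) and -0.13 for the extracellular matrix (25). At an unadjusted p under 0.05, 5 of the stress response genes were higher and 0 lower, against 3.82% and 2.7% of all genes tested. Matrix genes had 4 higher and 1 lower, interferon-induced genes 0 and 2, and cholesterol genes 1 and 0. Heat shock and peroxisome genes had 0 in either direction. The antiviral gene Rsad2 differed by -1.11 ± 0.36, and Lox, which cross-links collagen, by 0.73 ± 0.21 (SE).

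Markers of the lung's own cell types were bright in both groups. Scgb1a1, the club cell secretoglobin, had means of 13.16 ± 0.06 and 13.15 ± 0.05 (SD, n = 5 each), at the top of the normalized scale, where differences are compressed, and Sftpc, the surfactant protein of alveolar type 2 cells, 12.68 ± 0.13 and 12.72 ± 0.05. List medians were 0.16 for club cells (18 tested), 0.23 for ciliated cells (22), -0.05 for alveolar type 2 cells (19), -0.02 for alveolar type 1 cells (15), 0.00 for endothelium (20), -0.13 for smooth muscle and pericytes (14) and -0.07 for mesothelium and fibroblasts (16). In ciliated cells 20 of 22 markers were positive, among them Cfap126 (0.51) and Tmem212 (0.46). At an unadjusted p under 0.05, 5 of the 22 were higher, against 3.82% of all genes tested. None passed. Markers of tissues that can be taken with lung had medians of -0.30 for heart (24), -0.34 for skeletal muscle (8), -0.67 for liver (15), -0.04 for brown fat (10), 0.43 for white fat (12), 0.08 for thymus (4) and 0.00 for oesophagus (5), with none past the threshold. With 1 animal left out, the median ran from 0.06 to 0.72 for white fat, from -1.26 to -0.37 for liver, from -0.49 to -0.08 for heart and from -0.39 to -0.13 for skeletal muscle. That of brown fat ran from -0.19 to 0.09, that of thymus from 0.03 to 0.19 and that of oesophagus from -0.26 to 0.22. Summed liver marker signal ran from 885 to 3495 in controls and from 867 to 2881 with isoniazid.

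At 14 days, 4 genes passed (0.0307%), 2 higher (0.0154%) and 2 lower (0.0154%). The 14-day comparison uses its own 5 isoniazid and 5 control lungs. Cyp1a1 rose there by 3.07 ± 0.37 (SE; limma, adjusted p = 9.05e-06), with 5.25 ± 0.37 in controls and 8.32 ± 0.42 in treated lungs (SD, n = 5 each). Alas1 rose by 0.67 ± 0.13 (adjusted p = 0.0351), from 10.22 ± 0.15 to 10.90 ± 0.26. That call was lost with arrays centred (limma, adjusted p = 0.332), with every probe set (0.0833), with array weights (0.404), with the compared groups alone (0.292), with the clock score (0.683) or blood cell scores (0.0661) as covariates, and with 7 of the 10 animals left out in turn. Itgae, an integrin of mucosal T cells and dendritic cells, fell by 1.42 and Ces1f, a carboxylesterase, fell by 1.36 on the log2 scale (limma, adjusted p = 0.00938 each). Both passed with arrays centred (limma, adjusted p = 0.00794 and 0.0118) and with every probe set (0.0258 each). Neither passed with the compared groups alone (0.331 and 0.67) or without isoniazid animal 3 (0.0788 and 0.0823). Itgae was also lost with array weights (0.161) and with the clock score (0.257). At 7 days Itgae had differed by -0.85 ± 0.25 and Ces1f by -0.38 ± 0.24, neither past the threshold.

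The test of the change in effect from 7 to 14 days called 0 of 13020 genes (0%; limma; 384 at an unadjusted p under 0.05, which is 2.95%). The change was 0.92 ± 0.52 (SE) for Cyp1a1 and -0.31 ± 0.19 for Alas1. Mt1 was 0.64 ± 0.20 higher at 14 days and Selenbp1 0.25 ± 0.08, without passing, and their changes of -0.37 ± 0.29 and -0.21 ± 0.12 were not past the threshold either. Ppp1r3c lay at -0.25 ± 0.16 and Scn3b at -0.12 ± 0.15 at 14 days, with changes of 0.62 ± 0.22 and 0.63 ± 0.21. Fech, low at 7 days, lay at 0.04 ± 0.23 at 14 days, and Saa3 at 0.01 ± 0.46. The glucocorticoid-induced genes had a median of 0.35 at 14 days, the clock genes 0.46, the neutrophil markers 0.03 and the B cell markers -0.36. Of the 14-day arrays, 7 had a Gapdh 3′ to 5′ log2 ratio above 0.7. Without them Cyp1a1 and Ces1f passed at 14 days, Alas1 lay at 0.56 ± 0.18 (SE; limma, adjusted p = 0.859) and Itgae at -0.91 ± 0.26 (0.858).

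Isoniazid and permethrin lungs were set against each other directly at 7 days, without use of the shared controls. The diets differ in compound and dose, so the comparison sets the diets side by side as fed. Against permethrin at 10000 ppm, 24 genes passed (0.184%), 1 higher with isoniazid (0.00768%) and 23 lower (0.177%). The gene that was higher was Cyp1a1, by 3.53 ± 0.37 (SE; limma, adjusted p = 7.04e-08). Isoniazid lungs read 8.16 ± 0.53, permethrin lungs 4.63 ± 0.56 and the 7-day controls 5.999 ± 0.79 (SD, n = 5 each). The lower genes included the carboxylesterases Ces1g and Ces1f and enzymes that detoxify quinones, aldehydes and peroxides, with Ces1g at -2.81 ± 0.28, Gsta2 at -2.34 ± 0.21, Aldh3a1 at -2.02 ± 0.29, Nqo1 at -1.79 ± 0.23, Ces1f at -1.63 ± 0.24 and Gpx2 at -1.51 ± 0.23. Scn3b was also lower, by -0.76 ± 0.15 (adjusted p = 0.00856): the permethrin lungs read 9.64 ± 0.26 and the 7-day controls 9.63 ± 0.31 (SD, n = 5 each). Against permethrin at 5000 ppm, 11 genes passed (0.0845%), 2 higher (0.0154%) and 9 lower (0.0691%). The higher ones were Cyp1a1 (3.39 ± 0.37) and Alas1 (0.76 ± 0.13; adjusted p = 0.00277).

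Differences from permethrin at 10000 ppm in the other genes called against control did not pass. Alas1 was 0.53 ± 0.13 higher than with permethrin at 10000 ppm (SE; limma, adjusted p = 0.113). Mt1 read 9.72 ± 0.30 with isoniazid and 9.53 ± 0.17 with permethrin at 10000 ppm (SD, n = 5 each), a difference of 0.18 ± 0.20 (SE). Selenbp1 differed by 0.21 ± 0.08 and Ppp1r3c by -0.27 ± 0.16 from the same diet, neither past the threshold. The clock score of the permethrin 10000 ppm lungs ran from -0.91 to 1.005, across that of the isoniazid lungs, and that of the permethrin 5000 ppm lungs from -1.15 to -0.17.

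**Figure D5:**
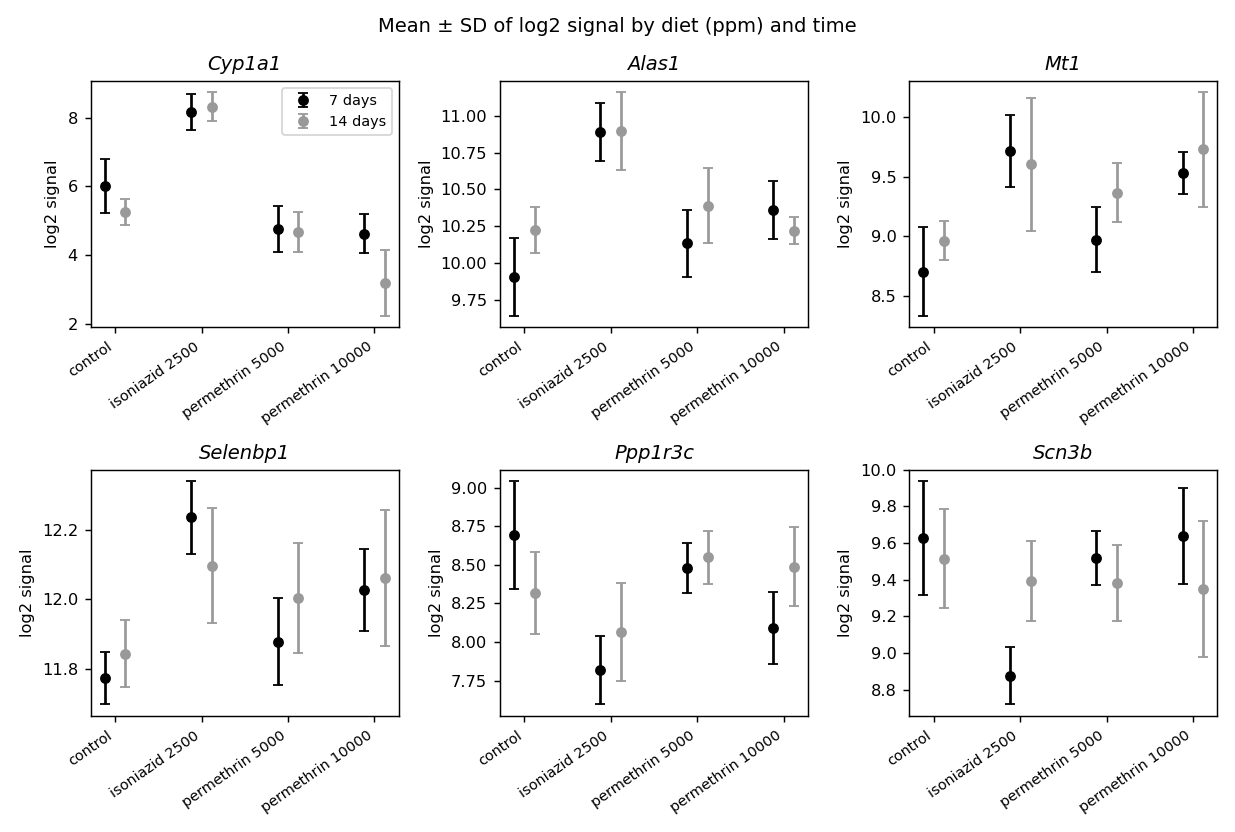
Mean ± SD of log2 signal (vertical axes) of the 6 genes in the 4 diets (doses in ppm) at 7 days (black) and 14 days (grey); n = 5 a group, except 4 for permethrin at 10000 ppm and 14 days. Cyp1a1 is highest with isoniazid at both times, Mt1 and Selenbp1 overlap between isoniazid and permethrin at 10000 ppm, and Scn3b is lower with isoniazid at 7 days (8.88) than at 14 days (9.39).

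The arrays of the comparison were of like quality. Array medians of the deposited signal ran from 17.4 to 22.6, and the 10 arrays correlated with each other at 0.919 to 0.943. The Gapdh 3′ to 5′ log2 ratio, a sign of RNA breakdown when high, was 0.16 ± 0.22 with isoniazid and 0.31 ± 0.21 in controls (SD, n = 5 each; exact two-sided permutation test, p = 0.286, adjusted p = 0.572). The Actb ratio was 0.71 ± 0.18 and 0.72 ± 0.20 (p = 0.976 by the same exact test). With 5 against 5 the smallest p this test can give is 0.00794.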

How the data were processed

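Lung RNA of 39 mice was measured, 1 Affymetrix array an animal, from biotin-labelled cRNA primed at the 3′ end, per the labels' protocols. The deposited values are signal intensity on a linear scale, which the authors made with MAS5, as the submitters' processing notes list; its version was not given in the sources used here. Gene symbols came from the platform annotation (45101 probe sets, 64 controls, 34945 with 1 gene symbol, 932 with several, 9160 with none). Promoter sequences are RefSeq's.

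From these, log2 values were quantile normalized because array medians differed 1.51-fold, with no pseudocount. This removes changes shared by most genes. Each gene is its brightest probe set, kept if its mean over all arrays was in the upper 60% (3.43 or more on the log2 scale, or 10.8 in signal), which left 13020 genes. A model of 8 group means was fitted to all 39 arrays with limma 3.58.1 in R 4.3.3 (data.table package, version 1.17.8), empirical Bayes with a trend, two-sided, Benjamini-Hochberg over all genes. Limma p-values in the text come from it unless another setting, covariate or left-out animal is named, and 95% intervals use its SE. Values of further probe sets come from the same model fitted to every probe set without a filter. The fit was tested on simulated data. The number of arrays limits the precision.

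The genes named are those past the threshold, the 12 next that did not overlap, a fixed set of pathway genes, the 3 members of smallest p of each list, and the largest of the other comparisons. The comparison and the 40 lists were chosen with earlier results of these data known, and the clock and blood cell covariates after seeing them. Alternatives were other scalings, a pseudocount, filters, every probe set, the compared groups alone, a replicate block, array weights and each animal left out. Replicate numbers are names only: deviations of same-numbered animals correlated between -0.23 and 0.16.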

Additional observations from a re-analysis of the deposited data

Results flagged for a closer look

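In 142 checks of described genes and RNA ratios, each over the 5 lungs of 1 group at 7 days, 9 had 1 lung far from the other 4, where chance gives about 1 in 20. Among isoniazid lungs, Sema7a was low in animal 5 (8.10 on the log2 scale, others 9.05 to 9.21), so its non-overlap with controls is narrow. Top2a was low in animal 4 (5.03, others 5.85 to 6.08), Slc4a1 was low in animal 4 (-0.48, others 4.41 to 5.95) and Tef was low in animal 1 (8.78, others 9.01 to 9.10). Cry2 (6.91, others 7.07 to 7.12) and Cth (6.16, others 6.66 to 6.84) were low in animal 5. Among controls, animal 1 was low in Serpina3n (5.28, others 5.69 to 5.79) and Scgb1a1 (13.05, others all 13.18, the highest value the normalization allows), and animal 2 in Nqo1 (4.65, others 4.86 to 4.95). No gene passed the test of a change in the isoniazid effect from 7 to 14 days.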

How the results depend on the processing

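The 6 genes past the threshold at 7 days became 2 with arrays centred on their medians, 3 with the deposited scaling, 3 with only the compared groups, 72 with array weights, 14 without arrays of a Gapdh ratio above 0.7, 19 with only the 7-day arrays, 0 with the clock score and 3 with the neutrophil and B cell scores as covariates, and 1 to 22 with 1 animal left out (22 without isoniazid animal 5, 1 without isoniazid animal 4, 3 without isoniazid animal 3 or control animals 1 or 2). The other alternatives gave 6 to 9. With only the compared groups, Cyp1a1 (limma, adjusted p = 0.103), Mt1, Ppp1r3c and Scn3b (0.109 each) did not pass, while Alas1 and Selenbp1 did. With every probe set, Mt1 and Scn3b did not pass (limma, adjusted p = 0.071 each). At 14 days the 4 genes became 1 with only the compared groups, 2 with array weights, 2 without high Gapdh arrays, 2 with the clock score and 1 to 6 with 1 animal left out. The change between times had 0 to 1 genes with 1 animal left out. Against permethrin at 10000 ppm, 24 became 15 when centred, 42 with array weights, and 21 to 25 with 1 animal left out. Against permethrin at 5000 ppm, 11 became 6 when centred, 17 with only the compared groups, 37 with array weights, 19 without high Gapdh arrays, 6 with the neutrophil and B cell scores and 7 to 13 with 1 animal left out. With a replicate block, 9 genes passed at 7 days, all 6 among them, and 7 at 14 days; the numbers do not pair the animals, and 1 of 10 matched its own number best. The causes were not tested. Leaving out 1 animal moved the Gapdh difference between -0.22 and -0.07, and the Actb difference between -0.06 and 0.08. All 6 genes kept their direction under the 23 alternatives. Their groups do not overlap, so leaving out 1 animal could not reverse them, and the filters left their log2 fold changes as they were. Dim probe sets limit what can be seen of Cyp1a2, Ahrr and Nat1.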
